A study of Mus musculus with 10 samples.

Results

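Transformed B cells of mice that carry an active NIK allele and an active Notch2 allele were compared with the normal precursors of marginal zone B cells. The comparison holds 4 of the 10 libraries of the series, the 2 lymphoma libraries and the 2 control libraries, chosen by their titles alone. It spans the whole distance from a normal B cell to the tumour, so it joins the effect of the alleles and that of transformation. The 2 libraries of doubly activated cells, which have the tumour's genotype without its transformation, are given beside it where they help to place a gene. That second contrast uses the same control libraries, so its values stand side by side with those of lymphoma and do not support them.

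Control cells were B cells sorted as marginal zone precursors from lymph nodes of wild-type C57BL/6 mice. Lymphoma cells were taken from lymphoma tissue of C57BL/6 mice that carried the alleles Rosa-NIKdeltaT3flSTOP, Rosa-Notch2ICN and CD19Cre, and doubly activated cells were lymph node marginal zone precursors of the same genotype. In these mice a Cre recombinase active in the B lineage releases from the Rosa locus a form of the kinase NIK that escapes degradation and the intracellular part of Notch2. Cells were sorted by flow cytometry, and the sources used here give neither age nor sex. The tissue differed between the groups together with the genotype, so these cannot be told apart. Whether the 2 libraries of a group stem from different animals or tumours is not stated in the labels, and the p-values therefore cover library-to-library spread, which may be technical. Both lymphoma libraries were led by the same heavy and light chain V segments, with values given further on.

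NIK, encoded by Map3k14, activates the noncanonical arm of NF-kB, which carries signals from BAFF and CD40 receptors and sustains mature B cells. Notch2 directs B cells toward the marginal zone fate, and its intracellular part acts in the nucleus with the DNA-binding protein RBPJ on targets of the Hes and Hey families. When an activated B cell becomes an antibody-secreting plasma cell, the repressor Blimp-1 (Prdm1) shuts down the B cell programme while Xbp1 enlarges the secretory machinery of the endoplasmic reticulum (ER).

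Libraries held 16407353 and 18564306 estimated counts in control, 23102081 and 21425408 in lymphoma and 18791698 and 16380889 in doubly activated cells. Expression is given in CPM, the counts of a gene scaled to a common library size with TMM factors, and a difference as log2 fold change ± SE, lymphoma minus control, with the adjusted p of edgeR's quasi-likelihood test over 15583 genes. A gene is called at an adjusted p under 0.05. Across genes, log2 CPM correlated at r = 0.994 between the lymphoma libraries, 0.989 between the control libraries and 0.912 to 0.916 between the groups. The control libraries differed from each other in some genes. Library 1 held more of the heat shock gene Hspa1b (559.0 against 17.6 CPM), and library 2 more of the macrophage genes Csf1r (11.5 against 56.2 CPM) and C1qa (4.67 against 26.4 CPM). The Y-linked gene Ddx3y stood at 59.8 and 0.653 CPM in the control libraries and at 144.4 and 154.2 CPM in the lymphoma libraries. Eif2s3y (36.9 and 0.544 CPM) and Uty (12.9 and 2.44 CPM) were likewise low in control library 2. Kdm5d, also Y-linked, stood at 87.9 and 44.3 CPM in control and at 94.5 and 106.5 CPM in lymphoma. The Notch-activated and the NF-kB-activated libraries are not compared here. Both groups enter the shared estimate of spread, the scaling and the choice of genes tested. The Notch-activated cells were labelled marginal zone B cells, unlike the precursors of control. The Notch-activated libraries correlated at 0.865 to 0.892 with the libraries of the other groups. Without the Notch-activated libraries 7859 genes were called between lymphoma and control. Genes could pass the filter through any of the 5 groups, so some tested genes, such as Dcn and Lum, had no count in lymphoma or control.

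The tumour and the normal precursor differed across much of the transcriptome. Of 15583 genes tested, 8328 were called (53.4%), 4336 higher in lymphoma (27.8%) and 3992 lower (25.6%). Counts of called list members given below are to be read beside these shares. A called difference of over 2-fold was found for 2262 genes in the upward (14.5%) and 1811 in the downward direction (11.6%). The median log2 fold change was 0.02, with a 5th percentile of -2.83 and a 95th percentile of 3.11, and 1568 genes had a fitted difference of over 8-fold. In 11432 genes (73.4%) the 2 lymphoma libraries did not overlap the 2 control libraries. A lack of overlap was thus the common case, also for the genes below where it is stated. In doubly activated cells 3090 genes were called against control (19.8%), 1641 higher (10.5%) and 1449 lower (9.3%). The share of those calls that were higher was 53.1%, and 41.7% when only library size was used for scaling. Lymphoma differed from doubly activated cells in 7988 genes (51.3%). Leaving out library 2 of the doubly activated cells left 1624 genes called between them and control.

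**Figure D1:**
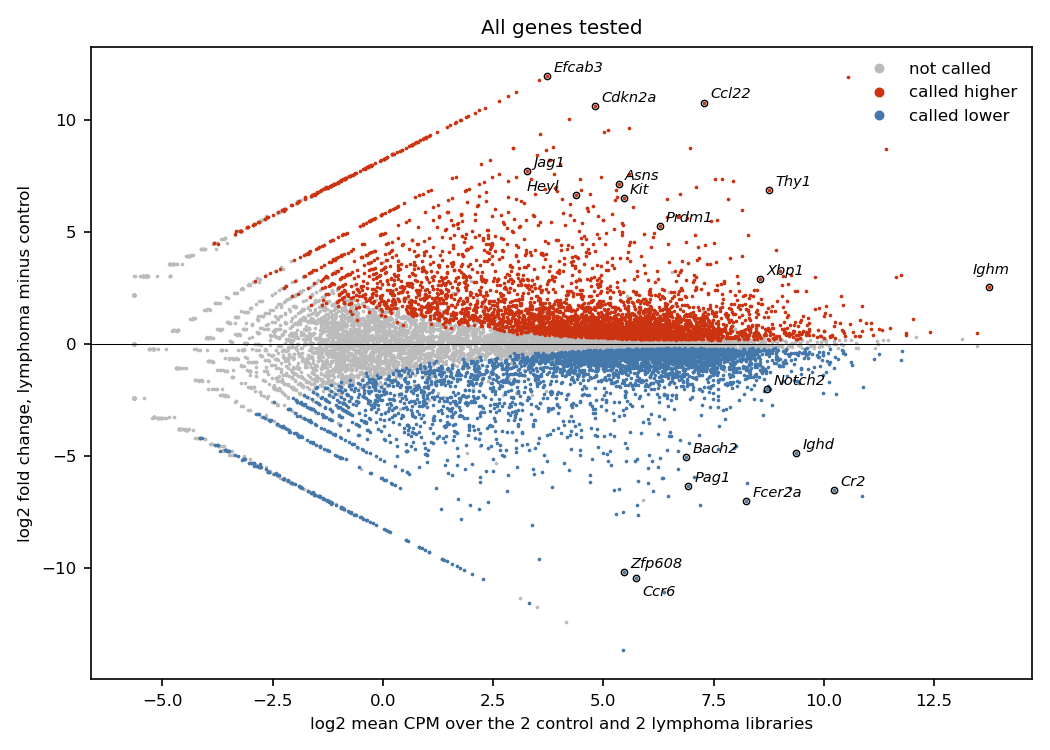
Each point is 1 of the 15583 genes tested, with the log2 of its mean CPM over the 2 control and 2 lymphoma libraries on the horizontal axis and its log2 fold change (lymphoma minus control) on the vertical axis. Red points were called higher (4336 genes) and blue points called lower (3992 genes), and genes far from 0 on the vertical axis, such as Ccl22 and Ccr6, are found at both low and high expression. The fitted fold changes of genes with no count in a group are not bounds.

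The 3 genes chosen as markers of the contrast moved by large amounts. Xbp1 (chr11:5520659-5525893, plus strand, GRCm38), the transcription factor of the secretory programme, stood at 82.7 and 94.0 CPM in control and at 668.8 and 662.6 CPM in lymphoma, a log2 fold change of 2.91 ± 0.09 (adjusted p = 1.34e-10). Heyl (chr4:123233556-123249875), a repressor switched on by Notch, was measured at 0.430 and 0.381 CPM in control against 38.9 and 44 CPM in lymphoma (6.66 ± 0.23, adjusted p = 3.51e-10). Fcer2a (chr8:3681737-3694175), which encodes the follicular B cell receptor CD23, went the other way, from 531.7 and 668.9 CPM to 4.71 and 4.52 CPM (-7.02 ± 0.20, adjusted p = 1.65e-09). In all 3 the groups were far apart and the libraries of a group close together. Doubly activated cells held 23.3 and 25.6 CPM of Heyl, above control and below lymphoma, while their Xbp1 (74.8 and 70.0 CPM) and Fcer2a (480.6 and 391.1 CPM) lay far closer to control than to lymphoma. Lymphoma differed from doubly activated cells in all 3 genes, by 0.76 in Heyl (adjusted p = 0.000498), 3.20 in Xbp1 (adjusted p = 8.85e-11) and -6.55 in Fcer2a (adjusted p = 2.87e-09) on the log2 scale.

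The lymphoma cells kept B cell identity genes at reduced levels. Of 27 tested genes of B cell identity, 21 were lower, 2 higher and 4 not called, with a median log2 fold change of -0.92 against 0.02 over all genes tested. Ms4a1, which encodes CD20, was nearly level, with 1696.5 and 1350.2 CPM in control against 1225.6 and 1226.3 CPM in lymphoma (-0.31 ± 0.10, adjusted p = 0.0185), and it was not called without control library 1 (adjusted p = 0.202), lymphoma library 1 (0.0627) or lymphoma library 2 (0.0619). It remained an abundant transcript, and the groups did not overlap. Ptprc, the phosphatase CD45 that all leukocytes carry, had 2154.0 and 1915.2 CPM in control and 395.7 and 465.9 CPM in lymphoma (-2.24 ± 0.10, adjusted p = 3.54e-09).

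The transcription factors of the B lineage did not fall evenly. Pax5, which holds cells in the B lineage, stood at 250.9 and 255.7 CPM in control and 82.0 and 128.6 CPM in lymphoma (-1.27 ± 0.18, adjusted p = 0.000266), while its partner Ebf1 fell by 0.51 on the log2 scale (adjusted p = 0.000234). Bach2, which restrains plasma cell differentiation, was nearly lost, from 189.8 and 265.3 CPM to 5.82 and 8.06 CPM (-5.04 ± 0.27, adjusted p = 1.56e-06). Lmo2, an adaptor of transcription complexes, went from 157.2 and 184.6 CPM to 9.95 and 9.68 CPM (-4.12 ± 0.11, adjusted p = 6.95e-11). Bach2 and Lmo2 lay between the groups in doubly activated cells, at 87.9 and 62.2 CPM and at 58.0 and 63.9 CPM. Ets1, which also restrains plasma cell differentiation, fell by 1.66 on the log2 scale and Foxo1, a factor of quiescence and of receptor gene rearrangement, by 1.86, with adjusted p of 2.42e-09 and 9.76e-09. The 2 members called higher were Ikzf1, by 0.27 ± 0.10 (adjusted p = 0.0312), and Pou2af1. Ikzf1 was not called without control library 2 (adjusted p = 0.273), without lymphoma library 2 (0.141) or with RLE size factors (0.0527). Pou2af1, the B cell coactivator OBF1, had 475.3 and 510.3 CPM in control and 1599.4 and 1625.4 CPM in lymphoma (1.71 ± 0.09, adjusted p = 9.26e-09).

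**Figure D2:**
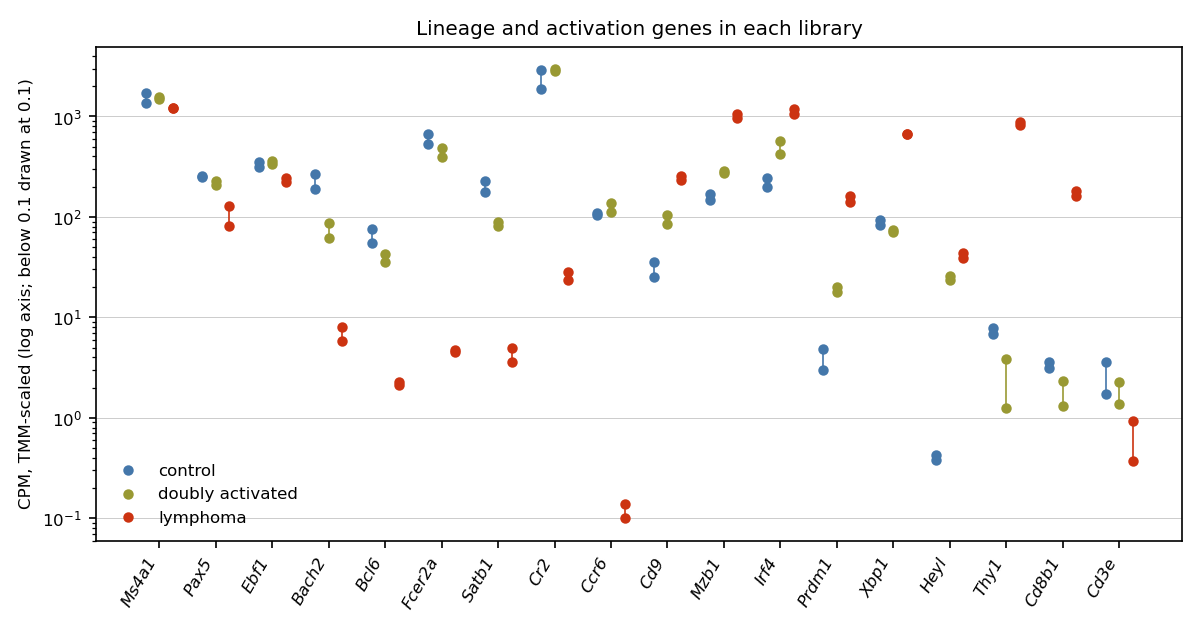
Each point is 1 library, in TMM-scaled CPM on a log axis, for genes of B cell identity, follicular and marginal zone state, plasma cell differentiation, Notch response and T cells, with control in blue, doubly activated cells in olive and lymphoma in red. Lines join the 2 libraries of a group, and values under the lowest label of the axis are drawn at it. Fcer2a, Satb1, Cr2 and Ccr6 lie lowest in lymphoma and Xbp1, Prdm1, Thy1 and Cd8b1 highest, while Ms4a1 stands at 1225.6 CPM or more in every library drawn.

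Most of the tested machinery of the B cell receptor was lower. Of 24 tested signalling genes, 19 were lower, 3 higher and 2 not called, with a median of -0.74. The chains that carry the receptor's signal, Cd79a and Cd79b, fell by 0.81 and 0.60 on the log2 scale (adjusted p = 6.67e-06 and 0.00013), and the kinases Syk and Btk by 0.76 and 0.75 (adjusted p = 1.38e-05 and 2.38e-06). Fyn, a kinase of the Src family, had 72.6 and 62.6 CPM in control and 1.25 and 2.39 CPM in lymphoma (-5.22 ± 0.19, adjusted p = 1.18e-09). Bank1, a scaffold that links the receptor to calcium release, had 765.8 and 647.1 CPM against 168.7 and 176.8 CPM (-2.03 ± 0.09, adjusted p = 3.38e-09). Against this direction, the kinase Blk rose by 0.52 ± 0.08 (adjusted p = 8.45e-05), the Ras activator Rasgrp3 by 1.47 ± 0.11 (adjusted p = 4.45e-07) and Nfatc1 by 0.60 ± 0.10 (adjusted p = 0.000275). In Fyn and Bank1 the lymphoma libraries lay far below control, and doubly activated cells had 92.9 and 90.9 CPM of Fyn and 561.1 and 573.7 CPM of Bank1.

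Brakes of the receptor fell as well. Of 17 tested inhibitory coreceptors and phosphatases, 11 were lower, 5 higher and 1 not called, with a median of -0.77. Pag1, the adaptor that recruits the kinase Csk to the membrane, had 243.3 and 234.8 CPM in control and 2.75 and 3.22 CPM in lymphoma (-6.33 ± 0.13, adjusted p = 1.09e-11). Siglecg and Cd22, lectin receptors that dampen the signal, fell by 1.10 and 0.92 on the log2 scale (adjusted p = 2.42e-07 and 7.45e-07), and Fcgr2b, the inhibitory Fc receptor, by 1.27 (adjusted p = 3.37e-08). Lair1, an inhibitory collagen receptor, was among the members that rose, with 8.61 and 5.93 CPM in control and 37.3 and 39.6 CPM in lymphoma (2.41 ± 0.18, adjusted p = 2.68e-07). Doubly activated cells had similar Lair1 levels of 41.5 and 54.5 CPM, and their Fcgr2b, at 106.2 and 104.4 CPM, was close to the 101.6 and 102.2 CPM of lymphoma. For neither gene was lymphoma called different from doubly activated cells (adjusted p = 0.115 for Lair1 and 0.632 for Fcgr2b).

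Genes of the follicular state were mostly lower. Of 18 tested members, 13 were lower, 2 higher and 3 not called, with a median of -1.98. Satb1, a chromatin organiser, had 177.7 and 227.8 CPM in control against 3.61 and 4.98 CPM in lymphoma (-5.56 ± 0.21, adjusted p = 1.41e-08). Ighd, the IgD constant region of mature naive cells, had 1141.8 and 1420.3 CPM against 43.1 and 43.8 CPM (-4.88 ± 0.38, adjusted p = 8.89e-05), and Zfp318, which directs the splicing that makes IgD, fell by 3.67 on the log2 scale (adjusted p = 2.83e-06). Cxcr5, the receptor that places B cells in follicles, fell by 1.39 on the log2 scale (adjusted p = 4.28e-05), and Klf2, a regulator of homing, fell by 2.02 (adjusted p = 0.00577). Both exceptions in the list, Tcf7 and Vpreb3, rose by 1.84 and 2.85 on the log2 scale (adjusted p = 2.17e-06 and 2.5e-09). Control cells thus carried high Fcer2a and Ighd next to the marginal zone receptor Cr2.

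Marginal zone genes split. Of 23 tested members, 13 were higher, 7 lower and 3 not called, with a median of 0.87. Cr2, the complement receptor CD21 that defines marginal zone cells at high levels, had 2898.7 and 1873.9 CPM in control, 2940.3 and 2868.8 CPM in doubly activated cells and 28.5 and 23.3 CPM in lymphoma (-6.52 ± 0.22, adjusted p = 1.43e-08). Ccr6, a chemokine receptor, fell from 109.7 and 104.2 CPM to 0.139 and 0 CPM. S1pr1, which draws cells toward the blood and the marginal zone, fell by 1.66 on the log2 scale (adjusted p = 1.77e-08), and S1pr3 by 0.68 (adjusted p = 0.00123). In contrast Cd9, a tetraspanin of marginal zone and plasma cells, had 35.9 and 25 CPM in control and 256.0 and 232.0 CPM in lymphoma (3.01 ± 0.19, adjusted p = 8.61e-07). Cd36, a scavenger receptor, had 142.2 and 92.2 CPM against 946.5 and 986.5 CPM (3.05 ± 0.22, adjusted p = 9.09e-06). Cd1d1, which presents lipids to T cells, stood at 178.9 and 125.8 CPM in control and 171.8 and 165.7 CPM in lymphoma, and the groups overlapped (adjusted p = 0.473).

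Genes of early B cells and of the progenitor state showed no common direction. Of 15 tested members, 6 were higher, 3 lower and 6 not called, with a median of 0.70, or 0.92 over 13 members once those with 3 counts or fewer in both groups are left out and those at 0 are set at their bound. Kit, the receptor of stem cell factor, had 0.307 and 1.52 CPM in control, 7.68 and 8.5 CPM in doubly activated cells and 82.2 and 92.5 CPM in lymphoma (6.52 ± 0.36, adjusted p = 2.78e-07). Vpreb3, a partner of nascent immunoglobulin chains, had 31.3 and 33.2 CPM against 251.7 and 214.1 CPM in lymphoma. Myb, a progenitor transcription factor, had 14.0 and 10.8 CPM against 88.2 and 95.5 CPM (2.90 ± 0.15, adjusted p = 1.66e-08), and doubly activated cells had 81.3 and 83.5 CPM. In Kit, Vpreb3 and Myb both lymphoma libraries lay above both control libraries. The recombinase genes Rag1 and Rag2 were at or below 0.880 CPM in each of these libraries, and neither was called.

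Most V segment counts of the heavy and kappa chains in the lymphoma libraries fell on 1 segment each. V segment use alone was read, not J segments or junctions. Ighv1-11 (chr12:114612243-114612675, minus strand) took 92.3% (95% Wilson interval 92.1% to 92.5%) and 92.1% (91.9% to 92.3%) of the counts on heavy chain V segments in lymphoma, and 0.162% and 0.131% in control. Igkv17-121 (chr6:68036812-68037318) took 90.8% (90.7% to 91.0%) and 91.7% (91.5% to 91.8%) of the kappa V counts in lymphoma, and 1.52% and 2.18% in control. The segment with the most counts in control was Ighv1-26 in both libraries, at 5.97% and 5.53%. The intervals cover counting error only. In doubly activated cells the same segment, Ighv1-26, led with 6.30% and 7.29%. Because V segments are alike in sequence, counts of near-identical segments may be shared among them.

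**Figure D3:**
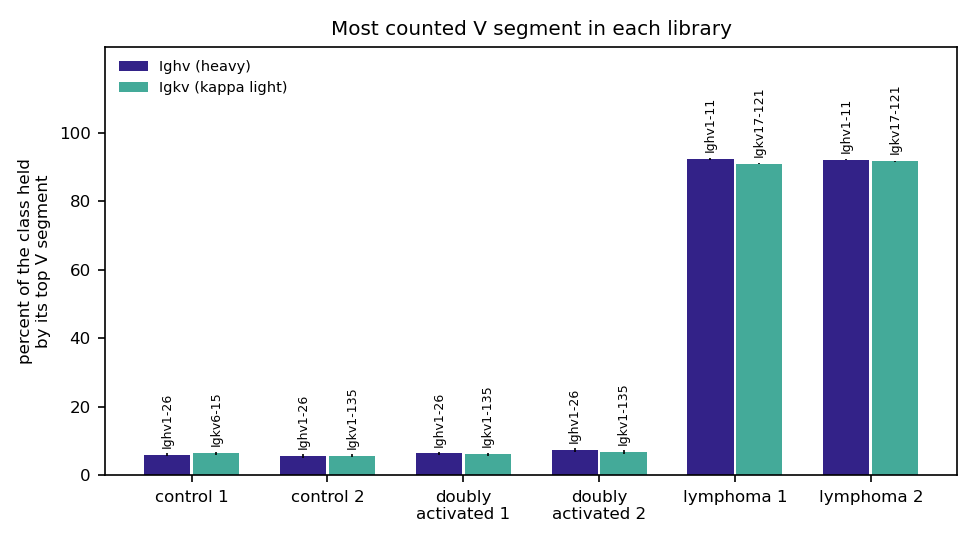
Bars give the percent of all counts on heavy chain (Ighv, purple) or kappa (Igkv, green) V segments that fell on the most counted segment of that library, which is named above its bar, and whiskers are 95% Wilson intervals. The top segments of the control and doubly activated libraries hold between 5.53% and 7.29%, and those of both lymphoma libraries between 90.8% and 92.3%.

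Immunoglobulin transcripts rose, most of them IgM and kappa. Immunoglobulin genes held 0.764% and 0.827% of the counts in control and 3.88% and 3.73% in lymphoma. Ighm, the constant region of IgM, had 3985.9 and 4013.8 CPM in control and 24363.8 and 22794.5 CPM in lymphoma (2.56 ± 0.09, adjusted p = 6.46e-10), and Igkc, the kappa constant region, 669.5 and 755.2 CPM against 6016.2 and 5324.1 CPM (2.99 ± 0.10, adjusted p = 3.89e-10). The groups were far apart in both. Among the constant regions of other classes, Ighg3 had 14.5 and 26.2 CPM in control and 604.7 and 597.7 CPM in lymphoma, and Ighe had 0 and 0.435 CPM against 12 and 13.3 CPM. Counts on a constant region do not show whether it was joined to a V segment, and class switching was not tested. Igha was lower, at 32.0 and 187.2 CPM in control and 7.26 and 6.69 CPM in lymphoma, with the control libraries unequal (adjusted p = 0.018, and 0.0916 and 0.0922 without lymphoma library 1 or 2).

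Plasma cell regulators rose in the lymphoma. Of 22 tested regulators and markers, 15 were higher, 2 lower and 5 not called, with a median of 2.01. Prdm1 had 3.01 and 4.79 CPM in control, 17.8 and 20.1 CPM in doubly activated cells and 140.8 and 162.1 CPM in lymphoma (5.26 ± 0.32, adjusted p = 2.74e-06). Irf4, the factor that drives plasma cell commitment at high dose, had 241.9 and 197.4 CPM, 426.2 and 565.4 CPM and 1068.4 and 1198.9 CPM in the same order (2.37 ± 0.14 for lymphoma minus control, adjusted p = 1.22e-07). In both genes the 3 groups were ordered without overlap. Creb3l2, an ER-bound transcription factor of secretory cells, had 14.5 and 16.2 CPM in control and 333.9 and 360.6 CPM in lymphoma (4.50 ± 0.13, adjusted p = 1.81e-10), with 12.9 and 16.3 CPM in doubly activated cells.

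The remaining plasma cell genes were divided. Tent5c, a poly(A) polymerase that stabilises immunoglobulin transcripts, had 4.59 and 10.1 CPM against 330.3 and 346.6 CPM (5.50 ± 0.39, adjusted p = 3.91e-05), and Mzb1, an ER cochaperone of immunoglobulin assembly, 167.8 and 148.5 CPM against 1065.7 and 967.6 CPM (2.68 ± 0.10, adjusted p = 5.5e-10). Against these, Jchain, which joins IgM and IgA into polymers, had 19.4 and 60.5 CPM in control and 46.9 and 44.9 CPM in lymphoma (0.19 ± 0.63, adjusted p = 0.826). Sdc1, the plasma cell surface marker CD138, had 2.83 and 9.30 CPM against 14.7 and 14.0 CPM (1.23 ± 0.58, adjusted p = 0.107). Cd38, Cd28 and Ly6c2 were not called either (adjusted p = 0.127, 0.753 and 0.402). The control libraries were unequal in Jchain and Sdc1, and for Jchain the lymphoma values lay between them.

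The ER folding and translocation genes rose nearly throughout the list, and some carry a known response element. The ER stress response element, read here as CCAAT, 9 bases of any kind and CCACG, on either strand, is bound by ATF6 with NF-Y. In the 250 bases before RefSeq transcription starts (GRCm38.p6), it was found in 9 of 31 promoters of the list (29.0%), belonging to 9 of 30 genes matched by symbol, and in 0.113% of all 32851 promoters. The 9 genes were Calr, Canx, Creld2, Dnajc3, Ero1b, Hsp90b1, Hspa5, Pdia6 and Syvn1, of which Ero1b has no value here. A match is a description of these letters and does not show binding. Of the promoters with a match, 3 are shown because their genes were called higher by different amounts, each 5′ to 3′ on the gene's strand and leaving out annotated exon bases, with the matches in capitals.
Hsp90b1, chr10:86705510-86705694, minus strand: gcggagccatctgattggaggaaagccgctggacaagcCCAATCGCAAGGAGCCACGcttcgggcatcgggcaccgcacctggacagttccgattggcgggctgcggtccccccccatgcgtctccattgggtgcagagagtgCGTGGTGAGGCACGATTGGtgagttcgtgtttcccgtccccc
Creld2, chr15:88819396-88819645, plus strand: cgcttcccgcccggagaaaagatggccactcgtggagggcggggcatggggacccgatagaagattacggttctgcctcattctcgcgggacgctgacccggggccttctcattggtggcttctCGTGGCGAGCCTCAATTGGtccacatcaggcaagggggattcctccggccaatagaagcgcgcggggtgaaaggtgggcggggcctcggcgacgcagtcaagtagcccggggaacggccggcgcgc
Calr, chr8:84846935-84847181, minus strand: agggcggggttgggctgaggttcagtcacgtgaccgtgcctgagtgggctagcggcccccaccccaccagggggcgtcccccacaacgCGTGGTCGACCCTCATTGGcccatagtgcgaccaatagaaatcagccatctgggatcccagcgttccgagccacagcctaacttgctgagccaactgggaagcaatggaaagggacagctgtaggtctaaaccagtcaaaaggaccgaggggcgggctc
The matches begin 212 and 107 bases before the start in Hsp90b1, 126 in Creld2 and 162 in Calr. In Creld2, in Calr and at the second site of Hsp90b1 the capitals read as the reverse complement of the element.

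Of 34 tested genes of ER folding and translocation, 32 were higher in lymphoma, 0 lower and 2 not called, with a median log2 fold change of 1.64. In doubly activated cells, against the same control libraries, 4 were higher and 9 lower, and 33 were higher in lymphoma than in doubly activated cells. Hsp90b1, the chaperone GRP94, had 539.5 and 469.8 CPM in control and 2199.2 and 2181.1 CPM in lymphoma (2.12 ± 0.09, adjusted p = 1.81e-09). Creld2, a secreted ER stress protein, had 25.4 and 29.2 CPM against 358.7 and 335.8 CPM (3.67 ± 0.09, adjusted p = 5.39e-11), and Calr, a lectin chaperone, 452.1 and 411.0 CPM against 1046.4 and 1021.9 CPM (1.26 ± 0.08, adjusted p = 4.6e-08). In these 3 genes, whose promoters are printed, the lymphoma libraries lay close together and above control, while doubly activated cells had 450.0 and 410.1 CPM of Hsp90b1, 25.4 and 23.4 CPM of Creld2 and 378.9 and 353.9 CPM of Calr. Sec24d, a coat protein of vesicles that leave the ER, had the largest rise of the list, from 5.72 and 6.85 CPM to 127.7 and 130.5 CPM (4.35 ± 0.13, adjusted p = 1.66e-10). Herpud1, of ER-associated degradation, had 85.3 and 108.9 CPM against 944.4 and 913.2 CPM (3.26 ± 0.11, adjusted p = 3.13e-10). The translocon channel Sec61a1 rose by 1.70 ± 0.08 (adjusted p = 3.84e-09) and the signal peptidase subunit Spcs2 by 1.72 ± 0.08 (adjusted p = 3.84e-09). The 2 members not called were Dnajb9, at 73.0 and 19.3 CPM in control against 147.0 and 155.2 CPM (adjusted p = 0.059), and the ubiquitin ligase Syvn1, at 301.5 and 360.1 CPM against 358.0 and 339.2 CPM (adjusted p = 0.518).

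**Figure D4:**
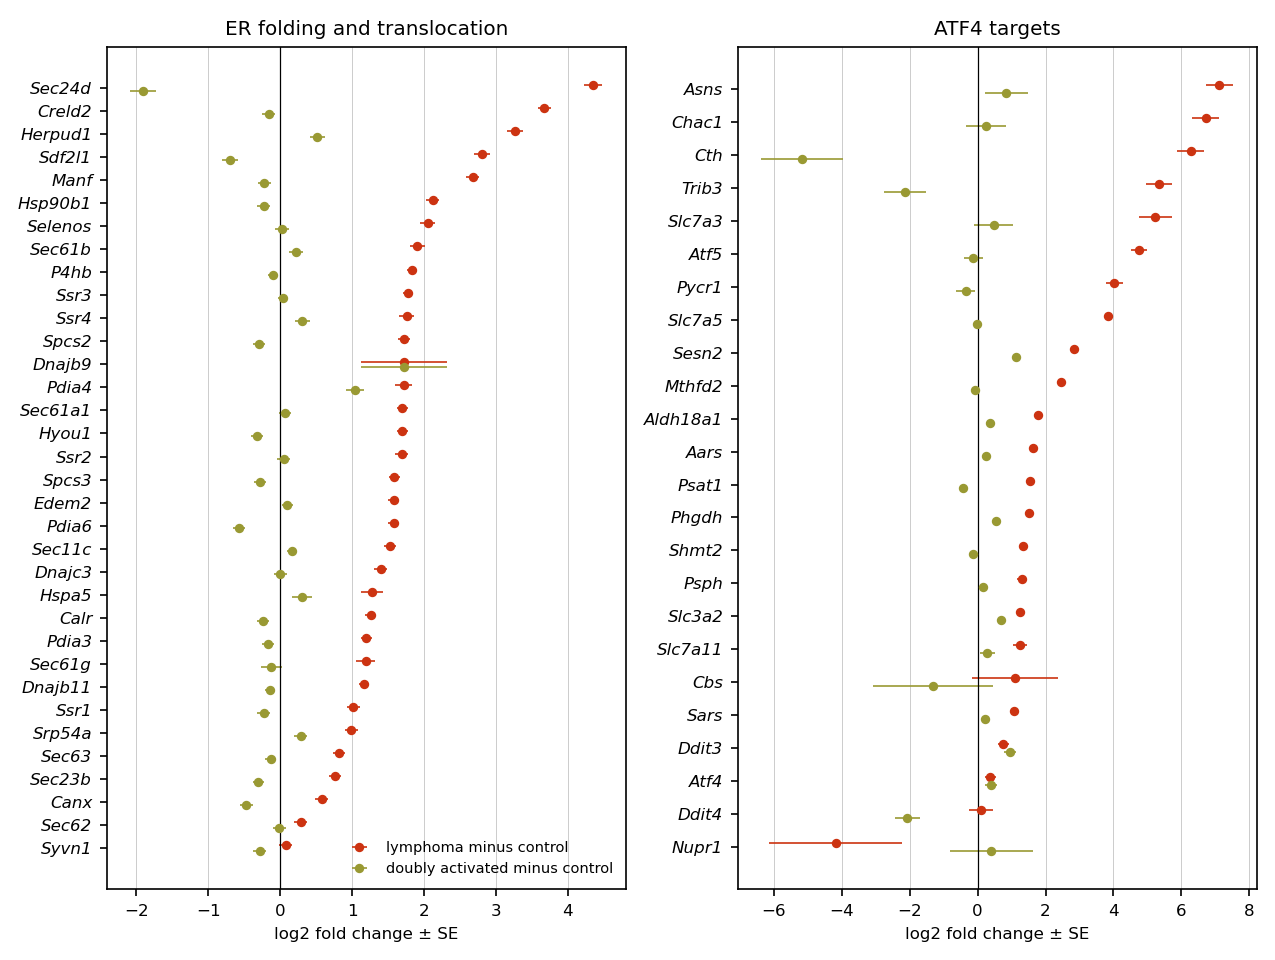
Points are log2 fold changes and bars their SE for the tested members of the ER list (left, 34 genes) and of the ATF4 list (right, 24 genes), in red for lymphoma minus control and in olive for doubly activated minus control. Both sets of points share the 2 control libraries. The red points of the ER list lie to the right of 0, and the olive ones on both sides of it, from Sec24d at -1.90 to Dnajb9 at 1.72, which was not called.

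Targets of ATF4, the factor that raises amino acid synthesis and uptake in the integrated stress response, were mostly higher as well. Its composite element, read as TTGCATCA on either strand, was found in the same window in 6 of 25 promoters of the list (24%), those of Aars, Chac1, Nupr1, Pycr1, Slc7a11 and Vldlr, among 22 genes matched, and in 0.791% of all promoters. Vldlr was not tested and Nupr1 not called. A pair of them is printed, again without exon bases and with the matches in capitals, because both genes were called higher by very different amounts.
Chac1, chr2:119350992-119351228, plus strand: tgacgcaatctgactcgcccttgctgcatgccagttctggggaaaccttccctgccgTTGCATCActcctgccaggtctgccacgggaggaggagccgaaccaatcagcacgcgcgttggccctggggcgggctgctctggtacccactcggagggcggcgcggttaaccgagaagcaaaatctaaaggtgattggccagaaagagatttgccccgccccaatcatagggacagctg
Slc7a11, chr3:50443615-50443863, minus strand: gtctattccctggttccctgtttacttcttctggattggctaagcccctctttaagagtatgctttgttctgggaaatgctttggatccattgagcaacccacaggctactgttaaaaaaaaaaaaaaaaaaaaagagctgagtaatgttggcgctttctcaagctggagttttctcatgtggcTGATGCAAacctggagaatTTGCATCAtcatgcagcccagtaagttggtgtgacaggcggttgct
The match begins 193 bases before the start in Chac1, and 66 and 47 bases before it in Slc7a11, where the first reads as the reverse complement.

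Of 24 tested ATF4 targets, 20 were higher, 0 lower and 4 not called, with a median of 1.59. Atf4 itself was among the 4, with 287.1 and 202.4 CPM in control and 323.1 and 312.0 CPM in lymphoma (0.38 ± 0.17, adjusted p = 0.0972), along with Cbs, Ddit4 and Nupr1. Asns, asparagine synthetase, had 0.553 and 0.598 CPM in control and 81.3 and 80.9 CPM in lymphoma (7.12 ± 0.41, adjusted p = 4.14e-07). Chac1, which degrades glutathione, had 0.123 and 0.272 CPM against 24.1 and 19.4 CPM (6.71 ± 0.40, adjusted p = 3.83e-08), and Slc7a11, the cystine transporter, 7.58 and 7.27 CPM against 17.4 and 18.0 CPM (1.25 ± 0.21, adjusted p = 0.000303). The groups did not overlap in any of Asns, Chac1 and Slc7a11. Slc7a5, the transporter of large neutral amino acids, had 29.0 and 31.9 CPM against 436.5 and 441.3 CPM (3.85 ± 0.13, adjusted p = 3.25e-10), and Mthfd2, of mitochondrial folate metabolism, 20.5 and 20.7 CPM against 110.8 and 114.0 CPM (2.45 ± 0.09, adjusted p = 5.14e-10). Serine synthesis rose at each of its steps, Phgdh by 1.5, Psat1 by 1.54 and Psph by 1.30 on the log2 scale (adjusted p = 1.03e-07, 4.42e-07 and 6.65e-06). The stress factor Ddit3, encoding CHOP, had 21.0 and 20.1 CPM in control, 31.5 and 47.9 CPM in doubly activated cells and 34.5 and 34.9 CPM in lymphoma (0.76 ± 0.17, adjusted p = 0.00269). In doubly activated cells 6 members of the list were called higher and 4 lower.

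Genes of cell division rose. Of 30 tested mitosis genes 28 were higher, 0 lower and 2 not called (median 1.34), and of 30 replication genes 23 were higher, 2 lower and 5 not called (median 0.80). Mki67, the antigen of cycling cells, had 193.3 and 115.3 CPM in control and 512.0 and 713.7 CPM in lymphoma (1.99 ± 0.33, adjusted p = 0.00303). Ccnb2, a mitotic cyclin, had 12.9 and 9.52 CPM against 45.0 and 41.3 CPM (1.95 ± 0.16, adjusted p = 4.81e-07), and Plk1, the kinase of mitotic entry, 11.9 and 9.07 CPM against 35.8 and 34.5 CPM (1.75 ± 0.17, adjusted p = 3.09e-06). Both lymphoma libraries lay above both control libraries in these 3 genes, and control library 1 was above library 2 in each. Tyms and Tk1, which supply thymidine nucleotides, rose by 1.76 and 1.34 on the log2 scale (adjusted p = 1.27e-06 and 1.02e-07). The 2 replication genes that fell were Cdt1, which licenses origins, by 1.01, and the polymerase subunit Pold1, by 0.71 (adjusted p = 1.99e-05 and 0.000429). In doubly activated cells 0 mitosis genes were higher than in control and 14 were lower, and each of the 30 tested was called higher in lymphoma than in doubly activated cells.

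The cyclins and inhibitors of G1 moved in both directions. Of 27 tested members, 14 were higher, 5 lower and 8 not called, with a median of 0.30. Ccnd2, a D cyclin, had 177.4 and 163.7 CPM in control and 553.3 and 623.2 CPM in lymphoma (1.79 ± 0.17, adjusted p = 1.42e-05), while Ccnd3 had 103.6 and 109.1 CPM against 46.5 and 41.8 CPM (-1.27 ± 0.10, adjusted p = 3.59e-07). Cdkn2a, the locus of the tumour suppressors p16Ink4a and p19Arf, had 0 and 0.0544 CPM in control and 57.8 and 54.2 CPM in lymphoma, a ratio of 1942.0 (exact 95% interval 348.2 to 76738.7) from 1 count in control. Both of its transcripts with counts were present. Cdkn2a-201, whose first exon at chr4:89281986-89282192 is that of p16Ink4a, had 682.3 and 605.1 counts in lymphoma and 0 and 1 in control. Cdkn2a-202, whose first exon lies upstream at chr4:89294334-89294653 and belongs to p19Arf, had 567.7 and 503.9 counts against 0 and 0. Per length these came to 50.6 and 51.7 TPM for the first and 39.6 and 40.4 TPM for the second in lymphoma. Of genes known as p53 targets, Cdkn1a rose by 3.47 ± 0.29 (adjusted p = 7.38e-07) and Ccng1, a cyclin of the DNA damage response, by 2.02 ± 0.08 (adjusted p = 7e-10), while Trp53 itself fell by 0.43 on the log2 scale (adjusted p = 0.000609).

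Genes of survival and death changed on both sides. Of 21 tested members of the Bcl2 family and its executioners, 9 were higher, 4 lower and 8 not called (median 0.34). Bbc3, the death-promoting protein PUMA, had 4 and 8.38 CPM in control and 53.7 and 45.3 CPM in lymphoma (2.98 ± 0.27, adjusted p = 1.05e-05), and Bax rose by 1.14 ± 0.13 (adjusted p = 1.1e-05). Mcl1, a survival factor of plasma cells, rose by 0.36 ± 0.08 (adjusted p = 0.00246), and Bcl2 had 219.8 and 196.9 CPM against 221.8 and 243.9 CPM (adjusted p = 0.112). Fas, the death receptor, had 5.10 and 5.17 CPM in control, 14.4 and 14.7 CPM in doubly activated cells and 0.555 and 0.831 CPM in lymphoma (-2.88 ± 0.28, adjusted p = 2.49e-06). In Bbc3 and Fas the groups did not overlap, with Bbc3 high and Fas low in the tumour.

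Genes of protein synthesis and energy metabolism were higher more often than lower. Of 34 tested ribosomal protein genes 16 were higher, 3 lower and 15 not called (median 0.21), and of 28 genes of ribosome biogenesis and the Myc network 14 were higher, 3 lower and 11 not called (median 0.30). Without lymphoma library 1, 8 of the latter were higher. Myc had 245.7 and 125.2 CPM in control, 495.9 and 747.2 CPM in doubly activated cells and 231.7 and 204.0 CPM in lymphoma (0.23 ± 0.36, adjusted p = 0.63), and its lymphoma values lay between the control values. Of 24 respiratory chain genes 19 were higher and 0 lower (median 0.49). Of 24 glycolysis genes 11 were higher, among them Gapdh by 1.39 and Pgk1 by 1.30 on the log2 scale (adjusted p = 4.12e-08 and 1.68e-07), and 5 lower, among them the glucose transporter Slc2a1, at 74.0 and 74.2 CPM in control and 29.8 and 30.8 CPM in lymphoma (-1.29 ± 0.09, adjusted p = 1.47e-07). Of 18 cholesterol synthesis genes 10 were higher and 1 lower (median 0.51).

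Of the alleles themselves, Map3k14 had 102.9 and 129.6 CPM in control, 244.4 and 254.7 CPM in doubly activated cells and 152.6 and 153.3 CPM in lymphoma (0.39 ± 0.10, adjusted p = 0.00496). With an offset for effective transcript lengths its difference was 0.20 and no longer called (adjusted p = 0.123). Notch2 had 651.5 and 689.7 CPM in control and 154.7 and 178.5 CPM in lymphoma (-2.01 ± 0.09, adjusted p = 2.5e-09), with 702.3 and 752.8 CPM in doubly activated cells. So lymphoma held more Map3k14 than control and less Notch2, in each case without overlap. The counts do not separate transcripts of the Rosa alleles from those of the endogenous genes.

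Noncanonical NF-kB genes were lower more often than higher. Over all genes 27.8% were called higher and 25.6% lower. Of 15 tested noncanonical members, 4 were higher, 8 lower and 3 not called (median -0.32). Without control library 2 the higher count was 2, and without lymphoma library 2 the counts were 2 higher and 4 lower. Nfkb2, which encodes the p100 precursor, had 288.3 and 355.0 CPM in control, 653.6 and 683.0 CPM in doubly activated cells and 302.3 and 290.5 CPM in lymphoma (-0.12 ± 0.09, adjusted p = 0.305). Its partner Relb had 84.6 and 105.2 CPM, 127.2 and 154.6 CPM and 72.2 and 68.6 CPM in that order (-0.43 ± 0.12, adjusted p = 0.00765), and was not called without control library 2 (adjusted p = 0.0799) or lymphoma library 2 (0.0588). Nfkb2 and Relb were high in doubly activated cells, and lymphoma lay below those by 1.17 and 1 on the log2 scale (adjusted p = 5.55e-07 and 1.73e-05). Tnfrsf13c, the BAFF receptor, had 406.6 and 443.6 CPM in control and 165.7 and 156.5 CPM in lymphoma (-1.40 ± 0.09, adjusted p = 8.35e-08). Of 22 tested canonical NF-kB genes, 6 were higher, 9 lower and 7 not called (median -0.08). Rel, the subunit c-Rel of activated B cells, had 148.0 and 128.2 CPM against 43.9 and 54.9 CPM (-1.48 ± 0.16, adjusted p = 2.07e-05), and Tnfaip3, which encodes the feedback inhibitor A20, 76.5 and 64.2 CPM against 187.3 and 193.2 CPM (1.44 ± 0.19, adjusted p = 0.000219).

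Notch targets moved unequally. Of 18 tested members, 7 were higher, 4 lower and 7 not called, beside 27.8% higher and 25.6% lower over all genes. Their median was 0.26, or 0.28 over the 17 members with more than 3 counts in at least 1 group. Besides Heyl, Asb2, a ubiquitin ligase subunit, had 30.0 and 34.9 CPM in control, 340.2 and 449.8 CPM in doubly activated cells and 190.4 and 180.1 CPM in lymphoma (2.51 ± 0.15, adjusted p = 1.56e-07). Dtx1, a B cell Notch target, rose by 0.39 ± 0.12 (adjusted p = 0.0162), a call lost without control library 2 (adjusted p = 0.0957), without lymphoma library 1 (0.122) and with an offset for effective transcript lengths (0.0633). Hes1, a classical target, was lower, with 79.8 and 51.7 CPM in control and 22.3 and 20.6 CPM in lymphoma (-1.62 ± 0.19, adjusted p = 6.16e-05), and Nrarp, a feedback inhibitor, fell by 2.33 on the log2 scale (adjusted p = 4.27e-05). Heyl and Asb2 were thus high and Hes1 and Nrarp low in the same tumour libraries. The groups did not overlap in any of these genes, as in 73.4% of all genes tested.

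Of 24 tested ligands, receptors and processing enzymes of Notch, 6 were higher, 9 lower and 9 not called (median -0.19), beside 27.8% higher and 25.6% lower over all genes. The ligand Jag1 had 0 and 0.163 CPM in control and 16.3 and 22.2 CPM in lymphoma, a ratio of 221.7 (exact 95% interval 75.6 to 1077.4) from 3 counts in control. Notch3, a receptor that was counted with the targets above and not among these 24, had 0 and 0.0544 CPM against 6.94 and 5.62 CPM. Its ratio was 218.2 (38.8 to 8649.0) from 1 count in control. Lfng, the glycosyltransferase that tunes ligand choice, had 35.9 and 66.5 CPM against 1.25 and 0.147 CPM (-6.16 ± 0.56, adjusted p = 7.72e-05). Notch1 fell by 1.06 on the log2 scale (adjusted p = 3.5e-06), but with the offset for effective transcript lengths its difference was 0.19 (adjusted p = 0.833). Fbxw7, which marks the intracellular part for degradation, rose by 1.48 ± 0.10 (adjusted p = 1.47e-07).

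Antigen presentation divided by class. Of 15 tested genes of MHC class I and peptide loading, 14 were higher, 0 lower and 1 not called (median 0.66). H2-K1, a class I heavy chain, had 2445.3 and 2799.0 CPM in control and 6009.3 and 5369.1 CPM in lymphoma (1.12 ± 0.09, adjusted p = 7.29e-07), and Nlrc5, the transactivator of class I genes, 208.1 and 215.6 CPM against 1042.1 and 1145.7 CPM (2.37 ± 0.08, adjusted p = 4.81e-10). Class I genes are close in sequence, so counts may be shared among them. Of 14 class II genes 2 were higher, 7 lower and 5 not called (median -0.12). H2-Ob, a subunit of the peptide loading inhibitor, had 968.2 and 1084.3 CPM against 419.5 and 388.5 CPM (-1.34 ± 0.09, adjusted p = 9.47e-08), while the invariant chain Cd74 had 7863.0 and 8923.7 CPM against 10231.5 and 9199.2 CPM (adjusted p = 0.0735).

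Surface molecules that meet T cells changed on both sides, with 11 of 24 tested costimulatory and checkpoint genes higher, 8 lower and 5 not called (median 0.57). Cd80, the B7 ligand of CD28, had 0.984 and 0.979 CPM in control, 10.3 and 9.81 CPM in doubly activated cells and 17.3 and 18.9 CPM in lymphoma (4.19 ± 0.27, adjusted p = 7.94e-08). Icosl, the ligand of ICOS, had 374.5 and 399.3 CPM against 51.3 and 50.9 CPM in lymphoma (-2.92 ± 0.09, adjusted p = 2.71e-10). Cd70 and Tnfsf4, TNF family ligands of CD27 and OX40, had no count in control and were at least 34.6-fold and at least 41.7-fold higher in lymphoma, against 3 counts over the control group. Their lymphoma levels were 2.41 and 3.62 CPM for Cd70 and 4.26 and 2.93 CPM for Tnfsf4. So Cd80, Cd70 and Tnfsf4 were above control in both lymphoma libraries, though Cd70 and Tnfsf4 stayed at low levels, and Icosl was below control.

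Cytokine and chemokine genes were called in both directions. Of 27 tested cytokine and receptor genes 11 were higher, 15 lower and 1 not called (median -0.49). Of 26 chemokine and receptor genes 7 were higher, 8 lower and 11 not called (median -0.27). Only the chemokine counts were near the shares over all genes, 27.8% higher and 25.6% lower. Il10, an immunosuppressive cytokine, had 0.184 and 0.272 CPM in control, 4.18 and 6.28 CPM in doubly activated cells and 30.0 and 29.4 CPM in lymphoma (6.97 ± 0.38, adjusted p = 1.86e-08). Il9r, the interleukin 9 receptor, had 197.1 and 191.8 CPM, 2611.4 and 2723.5 CPM and 870.0 and 853.1 CPM in that order (2.15 ± 0.08, adjusted p = 5.58e-10). Both were above control in both other groups, with Il10 highest in lymphoma and Il9r highest in doubly activated cells. Il4ra, a receptor chain for interleukin 4, fell by 2.41 on the log2 scale (adjusted p = 3.84e-09), and Il10ra, a chain for interleukin 10, fell by 2.79 (adjusted p = 3.13e-10).

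Ccl22, a chemokine that attracts T cells, was among the 12 largest rises by the rule for named genes, from 0.246 and 0.109 CPM in control to 340.3 and 286.3 CPM in lymphoma (10.77 ± 0.22, adjusted p = 1.09e-11), with 0.278 and 0.0654 CPM in doubly activated cells. Ackr3, a scavenging receptor of CXCL12, had 9.53 and 6.64 CPM in control, 245.1 and 323.9 CPM in doubly activated cells and 391.0 and 361.1 CPM in lymphoma (5.55 ± 0.19, adjusted p = 5.53e-09). Ccr10, a receptor of plasma cells that home to mucosa, had 0.0615 and 0 CPM against 11 and 10.5 CPM, a ratio of 371.3 (exact 95% interval 66.3 to 14697.1) from 1 count in control. All 3 were high in both lymphoma libraries, and of the 3 only Ackr3 was called higher in doubly activated cells than in control (adjusted p = 9.67e-08). Adhesion genes fell more often than they rose, with 8 of 24 tested higher, 11 lower and 5 not called (median -0.58). Pecam1, an adhesion molecule of leukocytes and endothelium, had 300.0 and 308.2 CPM in control and 58.3 and 53.1 CPM in lymphoma (-2.45 ± 0.08, adjusted p = 3.13e-10), and Cd44, the hyaluronan receptor, rose by 1.27 ± 0.08 (adjusted p = 9.27e-08).

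Of 20 tested germinal centre genes 5 were higher, among them Irf4 and Pou2af1, 8 lower and 7 not called (median -0.63). Over all genes 27.8% were higher and 25.6% lower, so the higher count was near the overall share. Bcl6, the factor that defines germinal centre B cells, had 54.9 and 76.0 CPM in control and 2.13 and 2.25 CPM in lymphoma (-4.90 ± 0.27, adjusted p = 2.45e-07). Interferon response genes were lower more often than higher, with 6 of 28 tested higher, 14 lower and 8 not called (median -0.52). Oas2, an antiviral enzyme, had 36.5 and 37.8 CPM against 1.06 and 1.86 CPM (-4.67 ± 0.38, adjusted p = 1.35e-05), and Irf7, which amplifies the interferon response, 33.3 and 38.4 CPM against 2.54 and 2.35 CPM (-3.87 ± 0.33, adjusted p = 9.86e-06). The GTPase gene Gbp2 rose by 2.45 on the log2 scale (adjusted p = 3.69e-09). In Bcl6, Oas2 and Irf7 the lymphoma libraries lay far below control.

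Immediate early and heat shock genes rest partly on single libraries. Of 24 tested AP-1 and immediate early genes 5 were higher, 10 lower and 9 not called (median -0.67), and 6 were lower without lymphoma library 1. Fosl2, an AP-1 subunit, had 1.66 and 3.26 CPM in control and 49.7 and 46.3 CPM in lymphoma (4.26 ± 0.39, adjusted p = 2.03e-05), while Zfp36, which degrades cytokine transcripts, fell by 1.34 on the log2 scale (adjusted p = 2.67e-05). Of 16 heat shock genes 2 were higher, 7 lower and 7 not called (median -0.44), and 11 were lower without control library 2. Without control library 1 or lymphoma library 1, 1 heat shock gene was higher. Hspa1b had 559.0 and 17.6 CPM in control and 1.60 and 2.33 CPM in lymphoma, with control library 1 far above library 2. Its call (adjusted p = 0.0441) was lost without control library 1 (adjusted p = 0.203) and without lymphoma library 1 (0.182) or 2 (0.167).

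Regulators of chromatin were mostly lower, with 17 of 24 tested lower, 4 higher and 3 not called (median -0.50), and 2 higher without control library 2 or without lymphoma library 2. Kmt2d, an H3K4 methyltransferase, had 1171.3 and 1303.5 CPM in control and 655.4 and 834.1 CPM in lymphoma (-0.73 ± 0.11, adjusted p = 9.67e-05), and Arid1a, of the SWI/SNF complex, 648.6 and 779.4 CPM against 331.5 and 404.2 CPM (-0.96 ± 0.11, adjusted p = 1.18e-05). Of 25 DNA repair genes 10 were higher, 3 lower and 12 not called (median 0.26). Of 29 tested genes known from human lymphomas 9 were higher, 13 lower and 7 not called (median -0.17, or -0.27 over 28 by the rule given for early B cell genes). Among these Pim1, a survival kinase, had 83.5 and 70.8 CPM in control, 392.9 and 708.2 CPM in doubly activated cells and 406.2 and 380.8 CPM in lymphoma (2.35 ± 0.29, adjusted p = 0.000602).

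**Figure D5:**
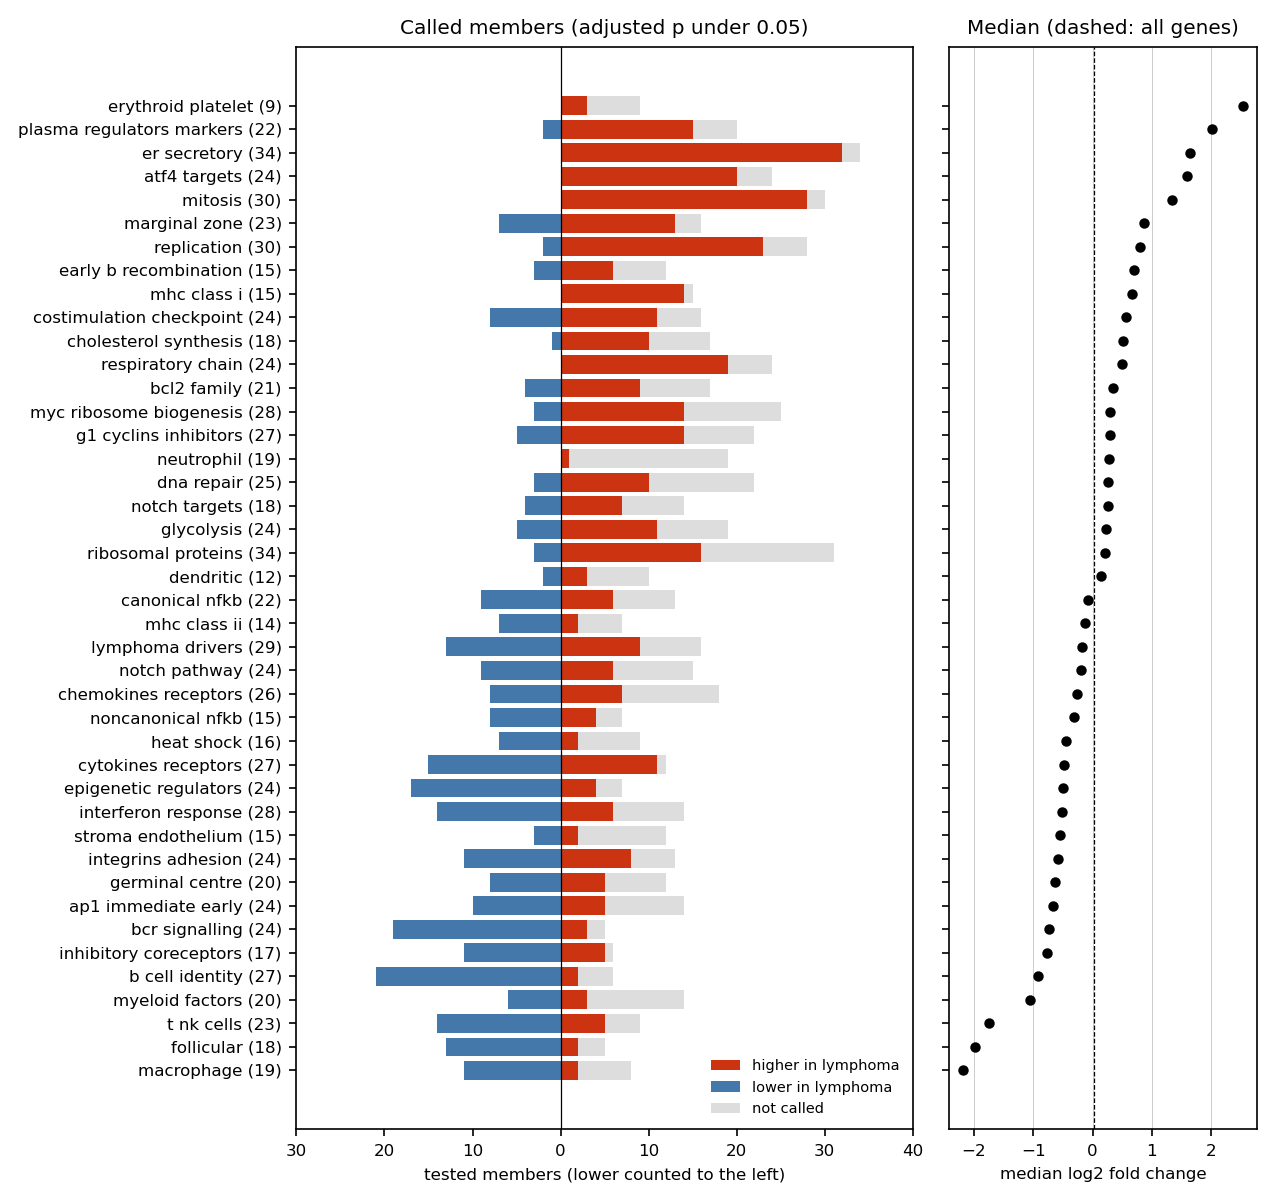
Bars on the left count the tested members of each list (their number in brackets) that were called lower in lymphoma (blue, to the left), called higher (red, to the right) or not called (grey). Points on the right are the median log2 fold change of the tested members, with the median of all genes tested (0.02) dashed. ER, ATF4 and mitosis lists hold 32 of 34, 20 of 24 and 28 of 30 members called higher, and follicular and B cell identity lists 13 of 18 and 21 of 27 members called lower.

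The largest rises by the rule for named genes, which asked for a call, at least 5 CPM and no overlap, were mostly of genes with no count in control (9 of 12). Against 3 counts over the control group, Efcab3 was at least 307.6-fold higher in lymphoma, Sh3gl3, an endophilin, at least 271.1-fold, Gpr31b at least 186.3-fold, and Smyd1, a methyltransferase of muscle, at least 165.5-fold. Efcab3 had 28.4 and 24.8 CPM in the lymphoma libraries and no count in doubly activated cells, and Gpr31b had 13.7 and 18.7 CPM in lymphoma and 0.612 and 0.850 CPM in doubly activated cells. Nhsl2, at least 141.7-fold higher, was barely called (adjusted p = 0.0455) and was not called without any single library of either group, with adjusted p from 0.0835 to 0.129. The RNA-binding protein gene Nova1, the transcription factor gene Atoh8 and the membrane chemokine gene Cx3cl1 followed, at least 104.6-fold, 88.4-fold and 85.1-fold higher. None of these genes had a count in control, and both lymphoma libraries held them at 6.79 CPM or more.

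The largest falls by the same rule included genes well expressed in control, such as Ccr6 and Zfp608, and others near the rule's limit of 5 CPM. Ccr6 was lower by a ratio of 1497.7 (exact 95% interval 512.1 to 7265.9), from 3 counts in lymphoma. Zfp608, a zinc finger gene, had 87.0 and 91.1 CPM in control, 69.3 and 71.8 CPM in doubly activated cells and 0.0463 and 0.0977 CPM in lymphoma, a ratio of 1250.7 (427.6 to 6068.3) from 3 counts. Doubly activated cells were thus far closer to control than to the tumour in Zfp608, as in Ccr6 with 136.8 and 112.3 CPM. Clcf1, a cytokine that can stimulate B cells, had 96.2 and 123.8 CPM against 0.555 and 0.538 CPM (-7.64 ± 0.23, adjusted p = 2.25e-10), and Prag1, a pseudokinase gene, 81.5 and 74.7 CPM against 0.648 and 0.147 CPM (-7.57 ± 0.33, adjusted p = 5.34e-09). The monocarboxylate transporter Slc16a7 and the glycosyltransferase B3gnt7 had no count in lymphoma and were at least 100.4-fold and 95.2-fold lower. The rule also chose Rbx1-ps, Rab11b-ps2 and Rpl17-ps8, pseudogenes whose counts are uncertain because near-identical genes share their reads.

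Transcripts of other cell types were checked beside these results, and in bulk RNA fewer cells of a type and less RNA per cell cannot be told apart. Defining T cell genes were low and lower in lymphoma, with Cd3e at 1.72 and 3.59 CPM in control and 0.370 and 0.928 CPM in lymphoma, and Trac at 1.29 and 1.90 CPM against 0.416 and 0.538 CPM. Both were called lower (adjusted p = 0.00503 and 0.0153) and neither was without control library 2 (0.0567 and 0.093) or lymphoma library 1 (0.0555 and 0.0802). Against that background 2 T cell surface genes were very high in the tumour. Thy1 had 6.89 and 7.83 CPM in control and 878.5 and 830.2 CPM in lymphoma (6.85 ± 0.30, adjusted p = 7.02e-07), and Cd8b1 3.6 and 3.14 CPM against 180.9 and 162.4 CPM (5.66 ± 0.16, adjusted p = 1.13e-10), while Cd8a, which encodes its partner chain, had 5.20 and 5.86 CPM against 4.26 and 4.81 CPM (adjusted p = 0.445). Of 23 tested T and NK cell genes 5 were higher, 14 lower and 4 not called (median -1.74), and their summed level was 265.7 and 302.3 CPM in control and 1215.2 and 1138.7 CPM in lymphoma.

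Of 19 tested macrophage genes 2 were higher, 11 lower and 6 not called (median -2.19), with 7 lower without control library 2, 7 without lymphoma library 1 and 5 without lymphoma library 2. The higher count was 3 without control library 2 and 1 without either lymphoma library. Their summed level was 186.2 and 512.3 CPM in control and 571.2 and 503.7 CPM in lymphoma. Of this Apoe, a lipid carrier, held 108.9, 220.0, 434.5 and 367.3 CPM in the same order. The 2 members called higher were Cd68 and Apoe. Cd68 had 6.83 and 13.3 CPM in control, and both lymphoma libraries lay far above these values, library 2 at 61.1 CPM. Apoe was called higher (1.28 ± 0.36, adjusted p = 0.0278), and not called without lymphoma library 1 (adjusted p = 0.109) or without lymphoma library 2 (adjusted p = 0.0631). Of 12 tested dendritic cell genes 3 were higher, 2 lower and 7 not called (median 0.15), with 5 higher without control library 2 and 1 lower without lymphoma library 2. Over all genes 27.8% were higher and 25.6% lower, and neither share of the dendritic list lay above these. Among its members called higher was Itgax, which encodes the dendritic cell integrin CD11c and is also carried by some B cells. It had 3.16 and 10.6 CPM in control and 88.2 and 93.0 CPM in lymphoma (3.70 ± 0.51, adjusted p = 0.00113). Neutrophil genes summed to 10.9 and 35.7 CPM in control and 25 and 26.6 CPM in lymphoma, with 1 of 19 called. Erythroid and platelet genes summed to 8.72 and 18.6 CPM against 83.6 and 70.0 CPM, with 3 of 9 tested called higher. Without control library 1, 1 was called, as Alas2, of haem synthesis, and Slc4a1, the red cell anion exchanger, lost their calls (adjusted p = 0.0611 and 0.108). Slc4a1 also lost its call without control library 2 (adjusted p = 0.119) or lymphoma library 2 (0.0678). Stromal and endothelial genes summed to 325.4 and 333.8 CPM in control against 83.4 and 81.1 CPM in lymphoma. Pecam1 alone held 300.0 and 308.2 CPM in control and 58.3 and 53.1 CPM in lymphoma. Of 15 tested members 2 were higher, 3 lower and 10 not called. The 2 higher were Cdh5, at 4.37 and 2.72 CPM in control against 11.2 and 12.7 CPM, and Pdgfrb, at 0 and 0 against 2.17 and 2.05 CPM. The 3 lower were Pecam1, Col1a2 and Vwf. The fibroblast genes Dcn and Lum had no count in the control and lymphoma libraries. The part of these transcripts in the differences above was not tested.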

How the data were processed

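RNA of sorted B cells was sequenced in 10 libraries, 2 in each of 5 groups. Per the submitters' processing notes, reads were quantified with kallisto 0.44.0 and the build was mm10. The deposited files give each transcript's estimated count and TPM, as the file headers name them. Estimated counts were summed per gene by the GENCODE M21 annotation (GRCm38), giving 30205 genes, and TPM was used only to compare levels between transcripts. The sums were fitted with edgeR 4.0.16 (R 4.3.3, quasi-likelihood test, TMM scaling, minimum count 10 and minimum total 15), all 5 groups sharing 1 estimate of spread with 5 residual degrees of freedom, and p-values were adjusted by Benjamini-Hochberg over 15583 genes. The fit was also run on simulated counts in which only a small share of genes was changed in lymphoma. Far more genes were called in the data, so that simulation does not test the fit for a contrast of this size. Alternatives used limma 3.58.1, DESeq2 1.42.0, other scalings and filters, an offset for effective lengths and left-out libraries. The comparison, the gene lists and the tests were chosen with earlier results of these data known. Named genes were the 12 largest rises and falls among called genes that reached a mean of 5 CPM in 1 group and whose groups did not overlap (without predicted genes, receptor segments and Y-linked genes), 6 genes of the design, and in each list the 4 tested members with the smallest p and the most abundant one. Other genes named in the text were chosen after their values were seen. Exact intervals and Wilson intervals cover counting error only. Promoters are those of RefSeq, GRCm38.p6. Results for some genes are not reported here.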

Additional observations from a re-analysis of the deposited data

How the results depend on the processing

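Under 12 alternative settings the number of genes called between lymphoma and control lay between 6956 and 8465, except with a minimum fold of 1.5, where 4159 were called (2309 higher and 1850 lower). Leaving out each of the 4 libraries in turn gave 7036 to 7875 calls. With the minimum fold, doubly activated cells differed from control in 815 genes and lymphoma from doubly activated cells in 3809. Doubly activated cells against control gave 1984 calls with these groups fitted alone and 1624 to 3081 with 1 library left out, the lowest without doubly activated library 2. Lymphoma against doubly activated cells gave 6473 to 6881 with 1 library left out. With a replicate block 7995 genes were called between lymphoma and control, 2794 between doubly activated cells and control, and 7634 between lymphoma and doubly activated cells. Libraries with the same number did not deviate together (r from -0.107 to 0.086 over 10376 genes, -0.063 for lymphoma and control). The main fit therefore did not pair them by number, though a pairing of small effect would not show in these correlations. Of 292 genes named in the text or by the rule, 261 were called, and 48 of these lost the call or changed sign in at least 1 alternative. Sign changes were counted only where the gene was called in the main fit or in the alternative. Of 4626 values 1 changed sign by this rule, that of Notch1, at 0.19 with the effective length offset, and the cause was not tested. Sign changes of genes called in neither fit were not counted. Counts of called list members moved by over 1.5 times in 108 of 1344 cases. Across scalings the median log2 fold change of all genes between lymphoma and control lay between -0.027 and 0.022. Having 2 libraries a group limits the precision of each value.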

Other observations

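A set of 107 genes, 104 of them protein coding, lay under 0.5 CPM in both control libraries and at 5 CPM or more in both lymphoma libraries. In doubly activated cells 57 of these were also under 0.5 CPM in both libraries and 3 were at 5 CPM or more in both. These genes were picked by their levels, so no test is given for them, and those named here were chosen after their values were seen. Developmental transcription factors were among them. Hoxa5, a homeobox gene of body patterning, had 0.0615 and 0.272 CPM in control, 0.334 and 0.850 CPM in doubly activated cells and 16.1 and 15.8 CPM in lymphoma. Hoxa7 had 0.186 and 0.109 CPM in control and 8.37 and 8.48 CPM in lymphoma, and Hoxa3 and Hoxb5 met the same limits. Prox1, a factor of lymphatic endothelium, had 0 and 0.218 CPM in control and 28.0 and 36.5 CPM in lymphoma, and Nr5a2, a nuclear receptor of liver and pancreas, 0.123 and 0 CPM against 19.8 and 25.3 CPM. Fzd6, a Wnt receptor, had 0.492 and 0.277 CPM against 43.9 and 44.8 CPM.

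In the other direction 37 genes, 22 of them protein coding, lay at 5 CPM or more in both control libraries and under 0.5 CPM in both lymphoma libraries. Of the 37, 20 were at 5 CPM or more in both libraries of doubly activated cells. The 37 and the 20 both include immunoglobulin V segments, such as Ighv1-22 and Igkv8-21, whose lymphoma counts fell mostly on 1 other segment per chain. They also include predicted genes and pseudogenes, such as Gm12191 and Rbx1-ps. Tle1, a corepressor, had 8.88 and 12 CPM in control and 0.0463 and 0.0977 CPM in lymphoma. Rgs18, a regulator of G protein signalling, had 18.2 and 9.79 CPM in control, 16.0 and 15.2 CPM in doubly activated cells and 0.0925 and 0.195 CPM in lymphoma. By chromosome, over 10098 genes, the median log2 fold change ran from -0.046 on chromosome 16 to 0.112 on chromosome 9, with 0.031 over all of them.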
